A study of Bos grunniens with 6 samples.

Results

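First-exon m6A peaks are the listed peaks of cattle-yak testis whose annotation names exon 1 of a transcript with at least 3 exons and whose width is at most 50000 bp. Of 16186 listed peaks, 1227 met this rule, and they fell on 1119 gene identifiers. Testis tissue came from the castration of 3 cattle-yaks, called TES5, TES6 and TES7, at an age of 5 years. Cattle-yaks are hybrids of yak and cattle whose males are sterile. Each animal gave 1 IP library, in which an m6A antibody had captured the marked pieces of poly(A) RNA, and 1 input library of the same RNA without the pull-down. There was 1 condition, so the comparisons below are between kinds of peak and between animals, and reads of the hybrid were aligned to the yak genome alone (LU_Bosgru_v3.0). The authors called the peaks from IP against input, and they stand in 1 list for the 3 animals, without scores, so no peak has a spread between animals. Gene expression is given as FPKM, which is fragments scaled by transcript length and library size, in the 3 input libraries. FPKM values keep no read numbers, so the depth behind a value is unknown, and the intervals given for shares (95%, Wilson unless named otherwise) cover counting error only.

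N6-methyladenosine is placed on mRNA during transcription by a complex built around METTL3 and METTL14, is removed by ALKBH5 and FTO, and is bound by YTH domain and IGF2BP proteins that act on splicing, stability and translation. In mammals the mark is known mostly from long internal exons, from the region of the stop codon and from 3' UTRs, whereas the first exon, which carries the cap and usually the 5' UTR, is known for it less. In the testis, loss of the writers, of ALKBH5 or of readers such as YTHDC2 impairs germ cell development. A peak that touches an annotated 5' UTR is in a class of its own in the list, so the peaks described here lie in exon 1 without that class. The 3' UTR is likewise a class of its own, so the last-exon peaks used for comparison leave those peaks out.

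Marker genes are given beside the labelled tissue and are not a test of it. Symbols are paired with identifiers only for genes with a peak, so a marker without a peak could not be looked up. A peak needs reads, so a matched marker was likely to be above 0 from the start. Each sum takes in every identifier of a matched symbol, several for *SYCP2* and *DMC1*. Among genes with a peak, 6 of 11 Sertoli cell markers were matched, with a summed FPKM of 111 to 117 over the 3 animals, and none of them was at 0. All 4 peritubular myoid markers were matched (340 to 384), 1 of 6 Leydig cell markers (*STAR*, 100.2 to 112), 4 of 10 spermatogonial markers (38.7 to 45.1) and 5 of 8 spermatocyte markers (50.4 to 77.0, with 1 of the *SYCP2* identifiers at 0). None of the 8 spermatid markers was matched, so their level is not known here. In bulk tissue, fewer cells of a type and less RNA per cell cannot be told apart.

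First-exon peaks sat at the beginning of their transcripts, as their label says. For 1151 of the 1227 peaks the annotated exon belonged to the listed transcript, and among these the 5' edge of the peak lay a median of 89 bp downstream of the transcript start, with quartiles of 0 bp and 308.5 bp. The median was 95 bp on the plus strand (492 peaks) and 65 bp on the minus strand (659 peaks), so the exon numbers follow the direction of transcription on both strands. The 5' edge fell exactly on the annotated start in 318 of them (27.6%, 25.1% to 30.3%), inside the transcript in 780 (67.8%) and upstream of the start in 53 (4.60%). A transcript with an annotated 5' UTR would put a peak at its start into the 5' UTR class. All distances are from the annotated start, and whether transcription begins there was not tested. The start of the listed transcript was spanned by 393 of all 1227 peaks (32%, 29.5% to 34.7%), and it lay within or at most 100 bp from 55.6% of them. Of the 7554 peaks in internal exons of transcripts with at least 3 exons and the same width limit, 0.874% spanned it, and of the 1176 peaks in last exons 0.680%. This difference follows from the choice of exon 1 and is given as a check of the label.

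**Figure D1:**
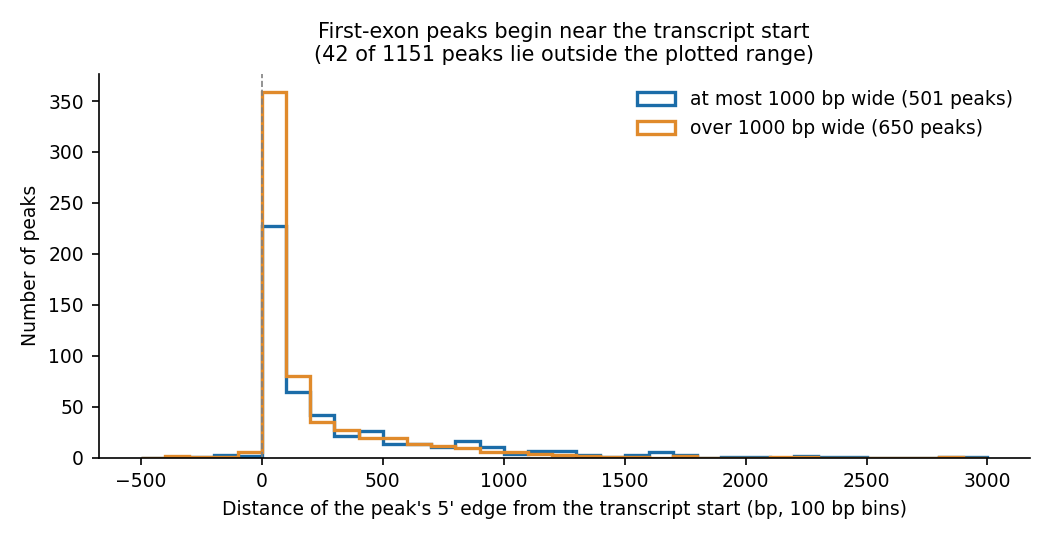
Number of first-exon peaks (vertical axis) by the distance of the peak's 5' edge from the start of the listed transcript (horizontal axis, bp, bins of 100 bp), for the 501 peaks of at most 1000 bp and the 650 wider peaks whose exon belongs to that transcript. Both kinds pile up just downstream of the start, and the narrow peaks have the longer tail, with 45 of 501 beginning at least 1000 bp inside.

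Width separated the narrow peaks, which can lie within an exon, from wide ones that reach into the gene. The listed width is the span on the genome with introns included. The narrowest first-exon peak had 146 bp and the widest 49266 bp, and the median was 1496 bp (exact binomial 95% interval 1292 to 1855) and quartiles of 316.5 bp and 6883.5 bp. The median was 2146.5 bp in internal exons (2060 to 2247) and 296 bp in last exons (251 to 299). A width of 1000 bp or less was found for 44.0% of the first-exon peaks, 34.0% of the internal-exon peaks and 90.6% of the last-exon peaks. First-exon peaks were thus narrow more often than internal-exon peaks by 10.1 points (Newcombe 95% interval 7.10 to 13.0) and less often than last-exon peaks, a difference of -46.6 points (-49.8 to -43.3). A wide peak of a last exon that reaches the 3' UTR is in the 3' UTR class and is not counted here. The part of this in the narrowness of last-exon peaks was not tested. A first-exon peak covered a median of 12.7% of the span of its listed transcript, against 4.89% in internal and 1.12% in last exons. The listed transcripts spanned a median of 21424 bp for first-exon peaks and 53342.5 bp for internal-exon peaks. The part of this difference in span in the coverage was not tested.

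The widest members were on *UBAP2* (chromosome 7, 10942177 to 10991442, 49266 bp, exon 1 of 28), *AP3B1* (chromosome 11, 49098 bp, exon 1 of 28) and *RERE* (chromosome 14, 48306 bp, exon 1 of 11). *AP3B1* encodes a subunit of the AP-3 sorting complex and *RERE* a nuclear receptor co-regulator. Just outside the limit were *UBE2K* (52061 bp), *EGLN1* (52597 bp) and *SNX27* (54404 bp), and 41 exon 1 peaks in all were wider than the limit. The narrowest were on *MYO5C* and *HACD2* (146 bp each) and *ESRRG* (147 bp, a width that *EIF4A1* and other members share). Exon 1 of transcripts with 2 exons held 328 further peaks, which the rule leaves out.

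Among the 9957 exon peaks of transcripts with at least 3 exons, 12.3% were in the first exon (11.7% to 13.0%), 75.9% in internal exons and 11.8% in the last exon (11.2% to 12.5%). An equal chance for each exon, whatever its length, would put 10.5% in the first (called the equal share below). The equal share counts first and last exons whole, while the observed shares leave out peaks of the 5' UTR and 3' UTR classes. The observed and equal shares are therefore not fully alike, here and in the gene lists below, and the part of this was not tested. The difference between them was not even over transcripts. In transcripts with 3 exons the first exon held 29.7% (26.0% to 33.8%), where the equal share is 33.3%. In those with 6 to 10 exons it held 16.8% (15.3% to 18.4%) against 13.1%, and in those with 11 to 20 exons 9.87% (8.87% to 11%) against 6.94%. With more than 40 exons, 17 of 650 peaks were in the first exon, 2.62% (1.64% to 4.15%) against 1.82%, an interval that holds the equal share.

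**Figure D2:**
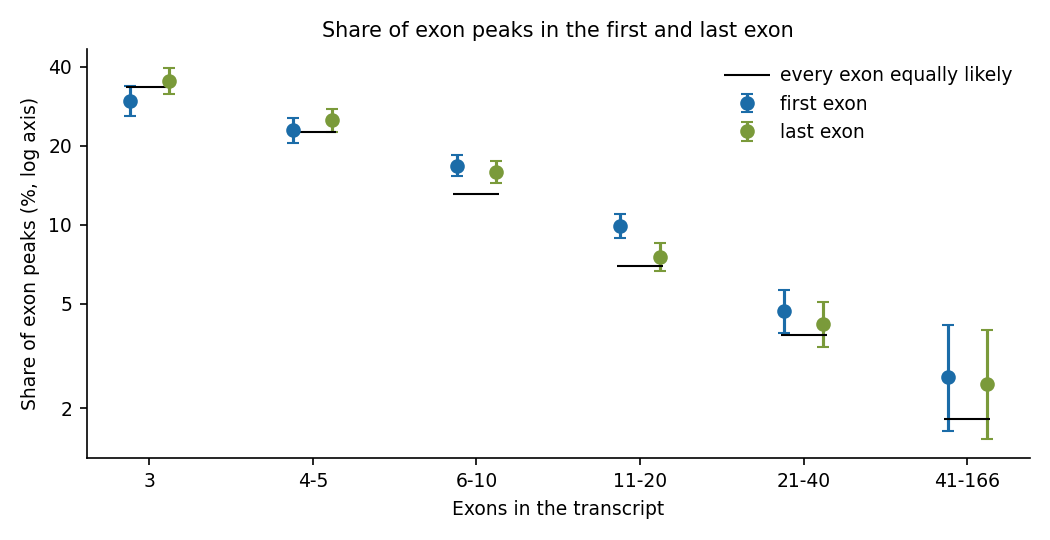
Share of exon peaks (percent, log axis) in the first exon and in the last exon, by the number of exons of the transcript (horizontal axis). Points are shares with 95% Wilson intervals and the black bars mark the equal share. The first exon lies above the bar from 6 to 40 exons and below it, within its interval, at 3 exons.

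The first-exon share changed with width in another way than the last-exon share. Peaks of the UTR classes are outside both shares, and the part of this in the change with width was not tested. Among peaks of at most 200 bp the first exon held 14.5% (12.7% to 16.6%) and the last exon 33.6%. For widths over 5000 and up to 10000 bp these shares were 10.7% and 0.618%, and over 10000 bp they were 17.1% (15.2% to 19.2%) and 1.51%. The equal share in that widest group was 8.48%. A wide peak overlaps several exons, and the list names 1 of them, so for wide peaks the exon number says where the annotation placed the peak and not that the signal is limited to that exon.

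Strand moved with these counts. The first exon held 13.9% of exon peaks on the minus strand and 10.7% on the plus strand, a difference of 3.18 points (1.89 to 4.47), while the last exon held 10.7% and 12.9%. For peaks of at most 300 bp the first-exon shares were 16.7% and 12.2% (difference 4.5 points, 1.47 to 7.53). Members whose 5' edge lay upstream of the start were 48 of 659 on the minus strand and 5 of 492 on the plus strand. The part of strand in the results was not tested further.

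The distance of a peak from the start sets a lower bound on the length of the first exon, because the exon begins at the start and must reach the peak. Of the 1151 peaks with an exon of the listed transcript, 197 (17.1%, 15.0% to 19.4%) began at least 500 bp inside and 69 (5.99%, 4.76% to 7.52%) at least 1000 bp inside, the latter on 58 gene identifiers. The median FPKM of the latter was 4.29 over the 57 that have a value, against 8.50 for all first-exon genes. The farthest peak was on *TCF20*, a chromatin-associated transcription co-regulator, where a 1298 bp peak began 4409 bp from the start (chromosome 5, 121659706 to 121661003, exon 1 of 3). The first exon of that transcript was therefore at least 4410 bp long. Among the next were *PCDH17* (at least 3276 bp, though this peak is 39184 bp wide and leaves the exon), *SNX18* (3054 bp), *FREM2* (3041 bp) and *MLH3* (2972 bp). The genes named for this distance were chosen after their values were seen.

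Several of these long first exons carried a row of separate peaks. Most first-exon genes had 1 first-exon peak (1034 of 1119), 70 had 2, 12 had 3, 2 had 4 and 1 had 9. *TCF20* had 4 peaks in exon 1 of 3, beginning 67, 866, 1564 and 4409 bp from the start, and no other listed peak. Its FPKM was 5.77 in TES5, 6.35 in TES6 and 6.61 in TES7. *FREM2*, an extracellular matrix protein of basement membranes, had 4 peaks of 151 to 848 bp in exon 1 of 26, the nearest 648 bp and the farthest 3040 bp from the start. The FPKM of *FREM2* was 1.72, 3.08 and 2.64 in TES5, TES6 and TES7, a coefficient of variation of 28.0% against 6.93% for *TCF20*. *TSC22D2*, a TSC22 domain protein, also had 3 members, but its 601 and 301 bp peaks began only 399 and 0 bp from the start of their transcript, and the 47025 bp peak contained another, short transcript whole (FPKM 8.80, 8.03 and 9.42).

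*MLH3* is a MutL homolog of meiotic crossing over, and all its listed peaks were in the first exon. They were a 150 bp peak 99 bp from the start, a 397 bp peak 1337 bp from it and a 150 bp peak 2971 bp from it, in exon 1 of 13. Its FPKM was 3.46, 2.89 and 2.42 in TES5, TES6 and TES7. *ZFHX3*, a large homeobox and zinc finger factor, had 3 members of 150 to 449 bp within exon 1 of 11 among its 12 peaks.

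**Figure D3:**
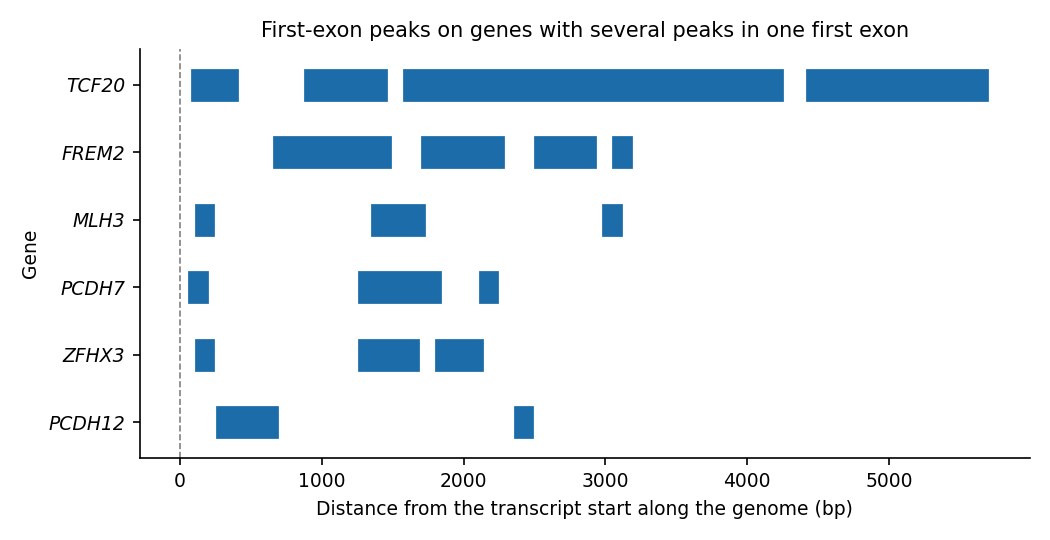
First-exon peaks (bars, drawn to scale) of 6 genes whose peaks in 1 first exon of the listed transcript lie at least 1000 bp apart between the first peak's end and the last peak's start. The horizontal axis is the distance from the transcript start along the genome in bp, and each row is a gene. *TCF20* has 4 peaks, the last beginning 4409 bp from the start, and *MLH3* has 3 short peaks up to 2971 bp.

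The cadherin family had the highest first-exon share of the 16 gene lists, which were made from symbols. Protocadherins and classical cadherins are adhesion molecules, and clustered protocadherins are known for a large variable exon at the 5' end of each transcript that encodes the whole extracellular part. Of 56 exon peaks on this list, 23 were in the first exon (41.1%, 29.2% to 54.1%), above the equal share of 17.1% and the 12.3% of all exon peaks beyond counting error. Among symbols beginning with PCDH it was 20 of 36 (55.6%, 39.6% to 70.5%), and 22 of the 23 peaks were at most 1000 bp wide. Of the 9 genes, 1 reached FPKM 1 in all animals, against 54.4% of the 20953 genes in the expression table, and the mean FPKM ranged from 0.340 to 1.59.

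*PCDHGA4* (ENSBGRG00000024033, chromosome 8) held 9 of these peaks, the most on any gene, out of 14 listed for it. The 9 peaks were 151 to 401 bp wide and lay between 57000630 and 57118054, a stretch of 117425 bp. They were annotated to exon 1 of 7 different transcripts, each with 3 to 5 exons, and 1 of the transcripts belongs to another identifier (ENSBGRG00000024857). For 2 of the transcripts the first exon held 2 peaks each, 301 and 151 bp wide in the one case and 401 and 251 bp in the other. The peaks of this gene were thus spread over alternative first exons rather than stacked in 1 exon. Its FPKM was 0.593, 0.633 and 0.659 in TES5, TES6 and TES7. Without *PCDHGA4* the list still had 14 of 42 exon peaks in the first exon (33.3%, 21% to 48.4%).

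The other cadherin genes had 1 to 3 members each. *PCDH7* had 3 members and no other peak, beginning 50, 1249 and 2098 bp from the start (FPKM 0.540, 1.33 and 0.805). *PCDH12* had 2, of 151 and 450 bp, with an FPKM of 1.63, 1.32 and 0.753, and *PCDHB7* had 1 of 448 bp with an FPKM of 0.729, 0.922 and 0.845. *PCDHAC2* resembled *PCDHGA4*, with 3 members of 201, 201 and 651 bp on first exons of transcripts other than the listed one. *FAT4*, a giant cadherin of planar cell polarity, had members of 300 and 150 bp at 897 and 1745 bp, at a mean FPKM of 0.470 ± 0.106 (SD, n = 3). *PCDH17* was the exception in width, at 39184 bp (FPKM 1.64, 1.49 and 1.64).

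**Figure D4:**
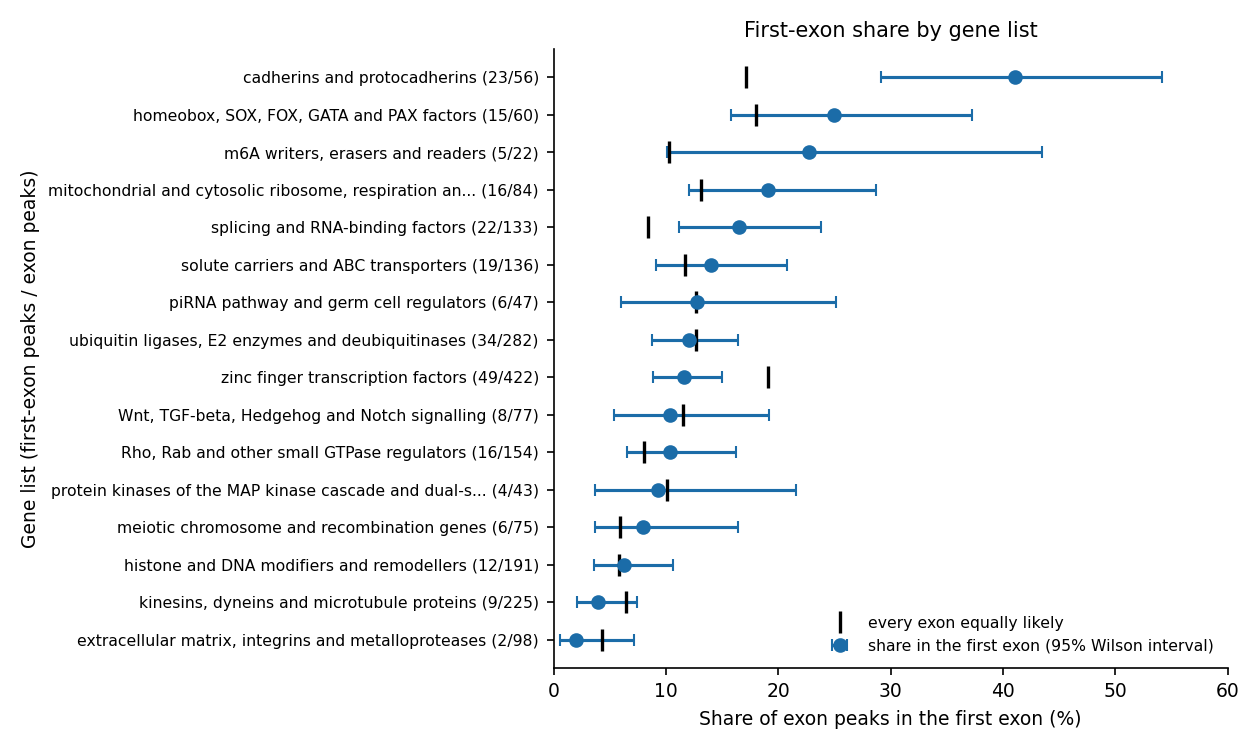
Share of exon peaks in the first exon (horizontal axis, percent) for 16 gene lists (vertical axis, with first-exon peaks over all exon peaks in brackets). Points carry 95% Wilson intervals and black ticks mark the equal share. The cadherins lie at 41.1%, to the right of their tick, and the zinc finger factors at 11.6%, to the left of theirs.

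Among writers, erasers and readers of m6A, 5 of 22 exon peaks were in the first exon (22.7%, 10.1% to 43.4%), on 4 of the 15 identifiers with any peak. The interval holds the equal share of 10.3% and the 12.3% of all exon peaks. The demethylase *ALKBH5* had a 447 bp peak 50 bp from the start, in exon 1 of 4. Of the 4 it had the highest FPKM, 85.9 in TES5, 73.0 in TES6 and 73.2 in TES7. *RBM15*, which guides the methyltransferase to its targets, had both of its peaks in exon 1 of 3, 1196 and 1495 bp wide, and an FPKM of 13.3, 13.7 and 14.8. *ZC3H13*, a structural part of the writer complex, had a 458 bp peak 50 bp from the start in exon 1 of 19 (FPKM 12.9, 14.8 and 16.3). The reader *IGF2BP3* had a 1360 bp peak in exon 1 of 16 at an FPKM of 1.65, 2.45 and 1.89. The coefficient of variation over the animals was 5.75% for *RBM15*, 9.52% for *ALKBH5*, 11.4% for *ZC3H13* and 20.5% for *IGF2BP3*.

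Transcription factors were in 2 lists. Homeobox, SOX, FOX, GATA, PAX, T-box and nuclear receptor factors had 15 of 60 exon peaks in the first exon (25%, 15.8% to 37.2%), an interval that holds the equal share of 18.0%. Zinc finger factors, which usually carry their finger array in the last exon, had 49 of 422 (11.6%, 8.90% to 15.0%), an interval below the equal share of 19.1% that holds the 12.3% of all exon peaks. *SOX9*, the factor that drives Sertoli cell identity, had a 2187 bp peak 547 bp from the start in exon 1 of 3, and its FPKM was almost even between animals, at 26.7, 27.5 and 28.4. *NR2F2*, an orphan receptor of interstitial cells, had a 4293 bp member whose 5' edge lay at -3205 bp, upstream of the start (FPKM 9.37, 11.5 and 8.0). *SIX5* had 2 members of 150 and 149 bp (8.25, 9.78 and 8.70), and *FOXM1*, a cell cycle factor, 1 of 4666 bp (8.65, 6.84 and 7.31). The steroid receptors *NR3C1* (898 bp, mean FPKM 6.30 ± 1.03, SD, n = 3) and *NR3C2* (199 and 348 bp, 5.08 ± 0.472) also had members, as did *SOX30*, a factor of round spermatid development (351 bp, 5.06 ± 1.82). Of the zinc finger genes, *ZKSCAN1* had a 250 bp member and the highest level, with an FPKM of 23.1 in TES5 against 34.3 in TES6 and 35.2 in TES7. *ZNF622* (5446 bp), *ZBTB8OS* (7447 bp, a cofactor of tRNA ligation and not a zinc finger factor) and *ZBTB47* (3939 bp) followed, with mean FPKM of 30.1 ± 1.39, 26.5 ± 2.24 and 24.8 ± 1.15 (SD, n = 3).

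Signalling genes of the Wnt, TGF-beta, Hedgehog and Notch pathways had 8 of 77 exon peaks in the first exon (10.4%, 5.36% to 19.2%; equal share 11.5%), so the list as a whole did not differ from it beyond counting error. All 3 TGF-beta ligands were among them, and each had the first-exon peak as its only listed peak, as did 36.9% of all first-exon genes. *TGFB1* had a 3449 bp peak 149 bp from the start in exon 1 of 7, with an FPKM of 14.7, 16.3 and 13.8. *TGFB3* had a 250 bp peak 847 bp from the start in exon 1 of 7 (7.65, 8.44 and 9.10), and *TGFB2* a 246 bp peak 98 bp from it in exon 1 of 8 (1.49, 1.80 and 2.56). Of their intracellular mediators, *SMAD2* had a 150 bp member (12.6, 15.6 and 14.6), and the inhibitory *SMAD6* and *SMAD7* had members of 450 and 246 bp at mean FPKM of 1.07 ± 0.0588 and 5.63 ± 1.15 (SD, n = 3). The Hedgehog receptor *PTCH1* had a member of 30484 bp whose 5' edge lay at -9135 bp, upstream of the start (FPKM 10.9, 14.0 and 14.0). *TGFB2*, *SMAD6*, *SMAD7* and the steroid receptors were picked out after their values were seen.

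The list of piRNA and germ cell regulators had 6 of 47 exon peaks in the first exon (12.8%, 5.98% to 25.2%) and the meiotic list 6 of 75 (8.0%, 3.72% to 16.4%), each with an interval that holds the equal share (12.7% and 5.89%) and the 12.3% of all exon peaks. *TDRD6*, a tudor protein of the chromatoid body, had 2 narrow members of 199 and 249 bp, 795 and 1689 bp from the start, and its FPKM was 2.72, 2.35 and 1.25. *TOPAZ1*, a germ cell protein with a PAZ domain, had 2 members of 150 bp at 1139 and 2278 bp in exon 1 of 19, which were its only peaks. It is on neither list, and like *TDRD6* it was picked out after its values were seen. *TSSK1B*, a testis serine kinase by its symbol, had a 2083 bp member in exon 1 of 8 (14.2, 13.1 and 12.7). *TSPYL2* (2192 bp), *TEX2* (2592 bp) and *TEX22* (16645 bp) completed the examples, with mean FPKM of 18.8 ± 1.49, 16.5 ± 3.80 and 3.35 ± 0.764 (SD, n = 3). They are on the list by symbol, which does not show a role in germ cells. *STAG2*, a cohesin subunit, had a 7579 bp member (9.56, 12.5 and 13.2), and *RAD23B*, an excision repair factor, one of 25974 bp (51.8, 51.2 and 55.7). The symbol *DMC1*, the meiotic recombinase, is carried by 3 identifiers, and its 1470 bp member lies on the one with an FPKM of 1.36, 1.72 and 1.51, not on the most expressed, whose mean FPKM was 15.2.

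Splicing and RNA-binding factors had 22 of 133 exon peaks there (16.5%, 11.2% to 23.8%), an interval above the equal share of 8.41% that holds the 12.3% of all exon peaks. All 20 genes of these peaks reached FPKM 1 in each animal, as did 91.9% of all first-exon genes, and the median of their mean FPKM was 17.4. *HNRNPU*, a nuclear matrix and splicing protein, had a 1530 bp member and an FPKM of 88.4, 97.4 and 93.4. The helicase *DDX3X* (8219 bp; 52.1, 71.5 and 69.8), *DHX37* (572 bp; 53.3, 53.3 and 42.8) and the RNA-binding protein *RBM42* (491 bp; 71.7, 56.3 and 61.0) followed. *DHX37* is a helicase by its symbol only, and its member lies in exon 1 of 3 of a transcript that spans 1802 bp. The list of ribosome, respiration and translation genes had 16 of 84 (19.0%, 12.1% to 28.7%; equal share 13.2%, which the interval holds), among them *RPS9* (6365 bp; FPKM 97.6, 73.8 and 86.8), the mitochondrial import receptor *TOMM22* (368 bp; 83.4, 54.3 and 55.8) and the helicase *EIF4A1* (147 bp; 31.5, 24.2 and 28.0). The 3456 bp peak listed for the complex I subunit *NDUFA8* (FPKM 32.7, 27.9 and 33.4) is on an exon of another identifier and covers 0.377% of the listed transcript. *RBM42*, *RPS9*, *TOMM22* and *EIF4A1* were highest in TES5, *HNRNPU* and *DDX3X* in TES6 and *NDUFA8* in TES7. Of the 989 first-exon genes that reached FPKM 1 in each animal, 39.5% were highest in TES5, 28.9% in TES6 and 31.5% in TES7.

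Chromatin modifiers had 12 of 191 exon peaks in the first exon (6.28%, 3.63% to 10.7%) beside an equal share of 5.84%, with *CHD3* (10805 bp, mean FPKM 36.1 ± 3.00), *SMARCD1* (2536 bp, 29.1 ± 3.77), the remodelling ATPase *SMARCA4* (5294 bp, 26.2 ± 0.982) and the deacetylase *HDAC2* (14389 bp, 24.2 ± 1.73, SD, n = 3) as the most expressed. Ubiquitin enzymes had 34 of 282 (12.1%, 8.76% to 16.4%; equal share 12.7%), led by *TRIM7* and by *UBE2G2*, an enzyme of endoplasmic reticulum degradation (9570 bp, 60.3 ± 3.88), *RNF187* (1937 bp, 26.6 ± 0.506) and *UBE2J2* (7148 bp, 23.7 ± 5.68). Solute carriers and ABC proteins had 19 of 136 (14.0%, 9.13% to 20.8%; equal share 11.7%), among them the zinc transporter *SLC39A6* (648 bp, 25.2 ± 2.50) and *SLC25A28*, the mitochondrial iron carrier (7069 bp, 28.1 ± 4.02), and also *ABCF1* (6622 bp, 38.8 ± 5.78), a translation factor despite its symbol, and *SLC37A2* (19.3 ± 1.05). The 200 bp peak listed for *SLC37A2* lies outside the listed transcript, on an exon of another identifier, so this FPKM is that of the listed gene and not of the exon's. Regulators of small GTPases had 16 of 154 (10.4%, 6.50% to 16.2%; equal share 8.04%), with the vesicle GTPase *RAB3A* (151 bp, 34.6 ± 4.66), *TBC1D10B* (639 bp, 21 ± 1.38), *RAB11FIP1* (20831 bp, 17.3 ± 1.00) and *ARHGAP5* (28299 bp, on an exon of another transcript than the listed one, 14.8 ± 2.15). The MAP kinase list had 4 of 43 (9.30%, 3.68% to 21.6%; equal share 10.1%), the members on *MAPK6*, *DUSP12*, *MAP3K10* and *MAP3K13* being 199 to 651 bp wide.

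The 2 lowest shares were those of the cytoskeleton and of the extracellular matrix. Kinesins, dyneins, tubulins and cilia proteins had 9 of 225 exon peaks there (4.0%, 2.12% to 7.43%; equal share 6.46%), on *CFAP99* (1079 bp, mean FPKM 22.1 ± 1.02), *CFAP97* (15327 bp, 8.49 ± 2.66), *KIF24* (348 bp, 6.73 ± 0.261), the dynein light chain *DYNLT3* (7546 bp, 4.61 ± 0.0961, SD, n = 3) and 5 further genes. Matrix proteins, integrins and metalloproteases had 2 of 98 (2.04%, 0.561% to 7.14%; equal share 4.27%), a 438 bp peak on the basement membrane collagen *COL4A6* (2.91, 3.54 and 3.59) and a 447 bp peak on the metalloprotease *ADAMTS15* (1.66, 2.01 and 1.46). Transcripts of both lists have many exons, and the intervals of both hold the equal share.

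Expression could be joined for 1076 of the 1119 first-exon genes. FPKM reached 1 in each of the animals for 989 of them (91.9%, 90.1% to 93.4%), where 54.4% of all 20953 genes in the table reached it. A peak needs reads, so a share above that of all genes was likely from the start. Among genes with any listed peak the share was 86.9%. Among genes with internal-exon peaks it was 88.8% (87.9% to 89.7%) and among genes with last-exon peaks 83.8% (81.3% to 86.0%). The median FPKM of first-exon genes was 8.66, 8.42 and 8.50 in the order TES5, TES6, TES7. That of internal-exon genes was 7.28, 7.62 and 7.59, and that of last-exon genes 4.96, 4.98 and 4.96. On the log2(FPKM + 1) scale the median of first-exon genes was above that of internal-exon genes by 0.22 in TES5, 0.13 in TES6 and 0.15 in TES7, a mean of 0.17 ± 0.05 (SD, n = 3), and above that of last-exon genes by 0.68 ± 0.02. The difference had the same sign in 3 of 3 animals. Computed from the mean of the animals, the difference from internal-exon genes was 0.15, and 0.088 when only genes that reached FPKM 1 in each animal were kept. No test was made, because genes are not replicates, some genes are in several of these sets and 3 animals allow no exact test below 0.05.

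Expression went with width within the first-exon genes. Genes with a member of at most 1000 bp had a median FPKM of 6.24 and those with a wider member 10.5. In internal exons the same medians were 5.61 and 8.39, so the difference was not limited to the first exon. Most first-exon genes were at a moderate level, 545 between 1 and 10 FPKM and 427 between 10 and 50, while 50 lay at 50 or more.

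The most expressed genes with a narrow member were led by *MUS81*, *CLDN19* and *TRIM7*. *MUS81*, a structure-specific endonuclease by its symbol, had a 730 bp peak in exon 1 of 4 as its only peak, at an FPKM of 303, 343 and 277 in TES5, TES6 and TES7. *CLDN19*, a claudin, had a 150 bp member on an exon of another transcript than the listed one and an FPKM of 320, 227 and 190. The ligase *TRIM7* (649 bp; 143, 126 and 135) and *GLTPD2* (791 bp; 138, 114 and 121) carried no other peak. *NUDC*, a partner of dynein (295 bp; 97.5, 65.8 and 66.2), *SCD5*, a stearoyl-CoA desaturase (148 bp; 62.8, 74.1 and 73.9), and *SIL1*, an exchange factor of the endoplasmic reticulum chaperone BiP (347 bp, on an exon of another transcript than the listed one; 55.4, 67.0 and 61.0), each had a further peak. Whether symbols are right for their identifiers was not tested, for these genes or for others named here. The symbols are printed as the list gives them. The myoid marker *ACTA2*, picked out after its values were seen, came next after *CLDN19* among all member genes, with a 5576 bp peak as its only peak and an FPKM of 226, 254 and 232.

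The animals resembled each other over the first-exon genes. Pearson's r of log2(FPKM + 1) across the 1076 genes was 0.977 for TES5 with TES6, 0.968 for TES5 with TES7 and 0.981 for TES6 with TES7, as a description across genes that are not independent. The median coefficient of variation was 11.4% over the first-exon genes that reached FPKM 1 in each animal, 11.2% over internal-exon genes and 12.3% over last-exon genes. Among member genes whose mean FPKM reached 10, *SHCBP1L*, a spindle protein of male meiosis, varied most, with an FPKM of 25.3 in TES5, 13.7 in TES6 and 5.91 in TES7. *RSF1*, a chromatin remodelling subunit (12, 24.7 and 7.43), *ERP27*, a protein of the endoplasmic reticulum (19.6, 15.9 and 42.3), *ZNF182* (16.1, 6.88 and 8.17) and *UBXN6*, a cofactor of the p97 ATPase (27.6, 16.9 and 11.8), came next. The order of the animals was not the same in these 5 genes.

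**Figure D5:**
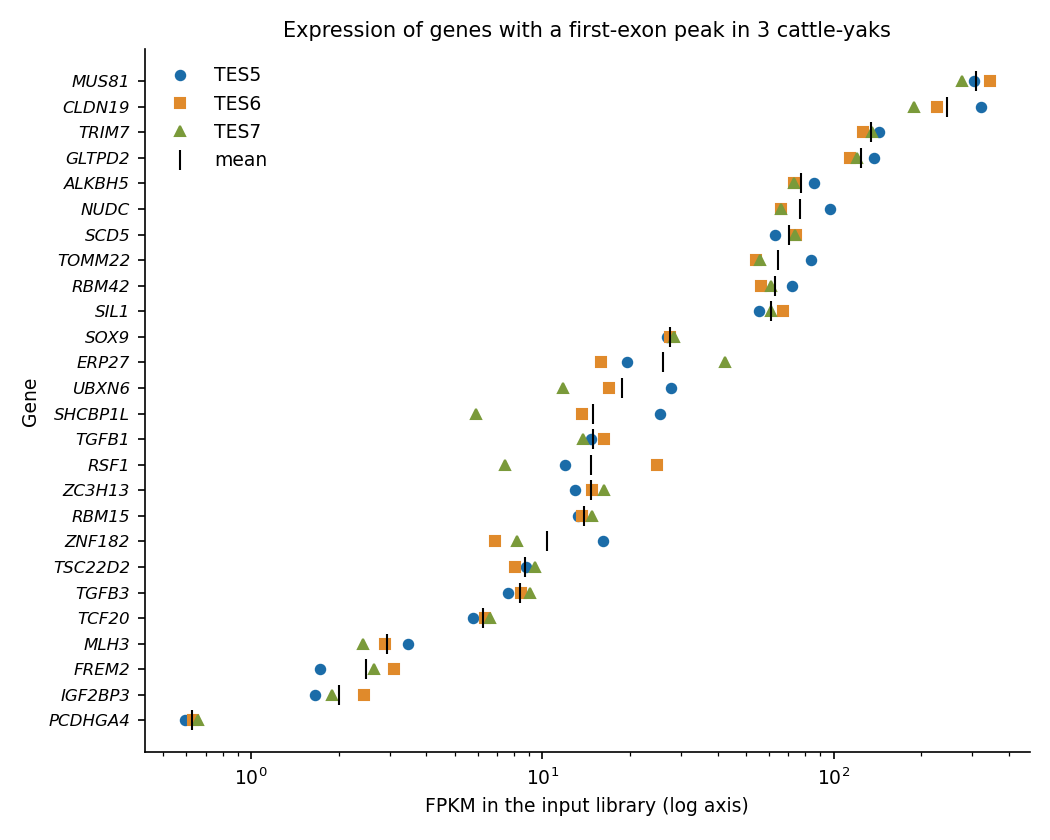
FPKM in the input libraries (horizontal axis, log scale) of 26 genes with a first-exon peak (vertical axis), with a symbol for each of the 3 animals and a black tick for the mean. They are genes with the most members, the most expressed genes with a narrow member, the most variable genes and 7 genes of the lists. Levels run from 0.593 for *PCDHGA4* to 343 for *MUS81*, and *SHCBP1L*, *RSF1* and *ERP27* have the widest spread.

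First-exon genes often had further peaks. The first-exon peak was the only listed peak for 413 of 1119 genes (36.9%, 34.1% to 39.8%). Among internal-exon genes 38.4% had no other peak, a difference of -1.51 points (-4.62 to 1.66), and among last-exon genes 39.2%, so neither differed beyond counting error. The intervals of the differences in this paragraph treat the gene sets as separate, although some genes are in both sets compared. Of all 1119 first-exon genes, 423 (37.8%) also had a peak in an internal exon, 267 (23.9%, 21.5% to 26.4%) a peak of the 3' UTR class and 109 (9.74%) one in the last exon. Only 50 (4.47%, 3.41% to 5.84%) had a peak in the 5' UTR class, fewer than the 10.4% of internal-exon genes (difference -5.98 points, -7.37 to -4.37). A transcript with an annotated 5' UTR would put a peak at its start into that class, and the part of this in the low share was not tested. A 3' UTR peak was more frequent than among internal-exon genes (20.3%, difference 3.51 points, 0.843 to 6.33) and last-exon genes (10.1%, difference 13.7 points, 10.6 to 16.8). A transcript with an annotated 3' UTR would put a peak at its end into the 3' UTR class. The part of this in the low share of last-exon genes was not tested.

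By chromosome, the largest number of members lay on chromosome 8, with 99 of its 541 exon peaks in the first exon (18.3%, 15.3% to 21.8%). *PCDHGA4*, with 9 of the 99, and *PCDHAC2* lie on this chromosome, and the share without them was not computed. Chromosomes 20, 3 and 5 followed with 77, 76 and 66, at shares of 13.5%, 13.8% and 13.2%. On X, 50 of 307 exon peaks were in the first exon (16.3%, 12.6% to 20.8%), and on Y 5 of 56.

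For some members the listed gene is uncertain. In 34 of 1227 (2.77%, 1.99% to 3.85%) the exon was of another identifier, or of a transcript without one (8 of the 34), and 7 peaks lay wholly outside the listed transcript. In 10 the peak contained the whole listed transcript. A pair of rows on *ZNF132* was identical. The 43 first-exon genes without an FPKM value held 47 peaks. A further 5 genes were listed at 0 in all 3 animals, and for 3 of their 5 peaks the exon was of another identifier. An FPKM of 0 can also be a failed estimate.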

How the data were processed

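MeRIP-seq was done on testis of 3 cattle-yaks, with 3 IP and 3 input libraries. The authors trimmed reads with Trimmomatic, removed ribosomal RNA with SortMeRNA, aligned them with HISAT2 (version 2.0.4 in the submitters' processing notes) to LU_Bosgru_v3.0, kept unique reads, called peaks with MeTDiff and annotated them with ChIPseeker. The deposited FPKM values were computed by the authors, and the program is not given in the sources used here. The peak list gives positions and lengths in bp, deposited by the authors as 1 list. Libraries were grouped by their titles.

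Exon numbers, positions, widths and genes were taken from the list and joined to FPKM by gene identifier. The start of a transcript was its lower end on the plus strand and its upper end on the minus strand. Expression was compared on log2(FPKM + 1). Shares have Wilson intervals, differences of shares Newcombe intervals and medians exact binomial intervals (95%). They count peaks as independent, which peaks of a gene are not. The work was done in Python 3.11.15 with pandas 2.3.3, numpy 2.4.6 and SciPy 1.17.1, the plots were drawn with matplotlib 3.10.9, and the procedures were tested on simulated data.

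The peaks, gene lists and tests were chosen with earlier results of these data known. Genes named are those with the most members (5), the highest mean FPKM with a member of at most 1000 bp (10, and 5 with no other peak), the widest and narrowest members (3 each), up to 4 per gene list by mean FPKM, and the 5 most variable at a mean FPKM of at least 10. Others were named after their values were seen. Some items that these rules or the plots would include are not reported here. A genome sequence of this build was not used here, so no sequence is shown and no motif was searched. The alternatives tried are other width, exon and FPKM limits, unique or merged intervals, matched identifiers and each animal left out.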

Additional observations from a re-analysis of the deposited data

How the results depend on the processing

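No score is listed per peak, so a stricter peak threshold was not run, and FPKM keeps no read numbers, so depth sets no limit that could be given for a gene. No paired analysis was possible because peaks are given once for all 3 animals and only input libraries have FPKM. Of 41 alternative values, 29 stayed within the error of the reported value and 12 moved beyond it. For counts the limit was 1.5 times. Only the difference from internal-exon genes could change sign, and it did not. With peaks of at most 1000 bp there were 540 first-exon peaks, of which 25.2% spanned the transcript start. That share was 55.6% when the start was within 100 bp of the peak, and 32.2% for exons of the listed transcript, chosen after seeing the data. With at least 5 exons, 10.4% of exon peaks were in the first exon. Keeping only genes that reached FPKM 1 in each input, the median width was 1936 bp, the median log2(FPKM + 1) was 3.39 in place of 3.25, and the difference from internal-exon genes was 0.088 in place of 0.15 (computed from the mean of the animals). A pseudocount of 0.1 gave a median of 3.10. By symbol, 28.2% of first-exon genes had no other peak. The share at an FPKM of at least 1 was 96.5% with a minimum of 0.5, 94.98% for the mean, and from 92.1% to 93.6% when each animal was left out. Leaving out an animal gave medians from 3.24 to 3.25 and differences from 0.12 to 0.17. The cause of these shifts was not tested, apart from those that follow from fewer peaks or genes.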
